A study of Mus musculus with 10 samples.

Results

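Acvrl1, endoglin (Eng) and the receptors, ligands and inhibitor of the TGF-beta pathway that act with them were followed through the lung transcriptome of 10 mice. The members were chosen by gene symbol and were Acvrl1, Tgfbr1, Bmpr2, Tgfbr2, Eng, Tgfbr3, Tgfb1, Tgfb2, Tgfb3 and Smad6, which made 10 of the 24394 symbols and 17 of the 34943 named transcript rows. Acvrl1 was on the list because its named rows were listed at or near 0 after ovalbumin, so its levels are given as a description and without a test. All mice were female BALB/c of 8 weeks. The Saline group (n = 3) received no ovalbumin. The OVA group (n = 3) was sensitized to ovalbumin, an egg protein that provokes an allergic, asthma-like inflammation of the airways, on days 0 and 7 and challenged through the nose for 4 days from day 12. The Herb group (n = 4) went through the same ovalbumin protocol and was given an ethanol extract of Descurainia sophia seeds by mouth at 200 mg/kg from day 9 to day 15. Whole lung was sequenced, so that fewer cells of a type and less RNA per cell cannot be told apart.

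Ligands of the TGF-beta family bring together a pair of type II and a pair of type I receptor kinases. The type II receptor activates the type I receptor, which phosphorylates Smad proteins that carry the signal to the nucleus. In endothelium, the type I receptor Acvrl1 (ALK1) works with Bmpr2 and with the co-receptor endoglin to answer circulating BMP ligands, and inherited loss of these genes causes vascular malformations or pulmonary hypertension. Tgfbr1 and Tgfbr2 form the receptor of the TGF-beta ligands proper, Tgfbr3 presents ligand to them, and Smad6 is an inhibitory Smad that is itself induced by BMP signalling.

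The libraries differed in make-up between the groups, which touched each level reported here. Protein-coding rows held 18.5 to 21.3% of the summed FPKM (fragments mapped to a transcript, per kilobase of its length and relative to all mapped fragments of the library) in Saline, 3.36 to 4.68% in OVA and 8.44 to 13.6% in Herb. The median log2 fold change of the 11205 genes tested was -0.75 in OVA vs. Saline, 0.48 in Herb vs. OVA and -0.27 in Herb vs. Saline. Each comparison is therefore given as deposited and again after every library was rescaled to a common 75th percentile of the gene sums, which brought those medians to 0.08, 0.01 and 0.09. An exact 0 in the table can be a failed estimate, since Gapdh, which every cell uses, was listed at 0 in 9 of the 10 libraries.

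The first question was whether the loss of Acvrl1 rows was a loss of the gene. Acvrl1 lies at chr15:101128522-101145336 on the plus strand (GRCm38, the assembly of mm10) and has 5 named rows. The most abundant, NM_009612, stood at 22.3, 11.97 and 22.4 FPKM in the 3 Saline mice and was listed at 0 in all 7 OVA and Herb mice. NM_001277257 stood at 11.98, 8.04 and 8.49 FPKM in Saline, NM_001277258 at 7.57, 4.64 and 4.20 FPKM, and both were listed at 0 in every other library. NM_001277259 was at 0.0498, 0 and 0.202 FPKM in Saline and at 0 elsewhere. NM_001277255 was at 0 in Saline and OVA and at 0.115, 0.0261, 0 and 0.0134 FPKM in Herb, values that are all near 0. The loss was thus not that of a single row, and summed over its named rows Acvrl1 went from 41.9, 24.7 and 35.3 FPKM in Saline to 0 in the 3 OVA mice and to at most 0.115 FPKM in Herb. NM_009612 and NM_001277259 both encode a protein of 502 residues and differ outside the coding sequence.

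The named rows were not all that the table held for this locus. The table also lists transcript models assembled from the reads, without symbol, coordinates or strand, and 9 of them share the locus number whose missing entries are the 5 Acvrl1 rows. These 9 models summed to 16.2, 12.01 and 15.8 FPKM in Saline, to 20.8, 23.9 and 17.5 FPKM in OVA and to 35.2, 41.1, 28.4 and 31.3 FPKM in Herb. All 7 ovalbumin-exposed libraries were above the 3 Saline libraries. How many other loci had models that rose in this way was not counted. Named rows and models together gave 58.1, 36.7 and 51.2 FPKM in Saline (48.6 ± 10.9, SD), 20.8, 23.9 and 17.5 FPKM in OVA (20.7 ± 3.20) and 35.4, 41.1, 28.4 and 31.4 FPKM in Herb (34.1 ± 5.52). After rescaling, the locus stood at 42.2, 27.3 and 37.6 in Saline, 37.1, 34.2 and 27.6 in OVA and 33.3, 36.9, 32.3 and 32.2 in Herb. On that scale the means were 35.7 ± 7.63 in Saline, 33.0 ± 4.87 in OVA and 33.7 ± 2.19 in Herb, with the groups overlapping. As far as the numbering places the models, the near-complete loss was therefore one of the rows that carry the symbol, and the locus as a whole stayed listed well above 0 in every library. An annotated antisense gene lies inside Acvrl1, and its reads cannot be told apart from those of Acvrl1 if strand was not kept.

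**Figure D1:**
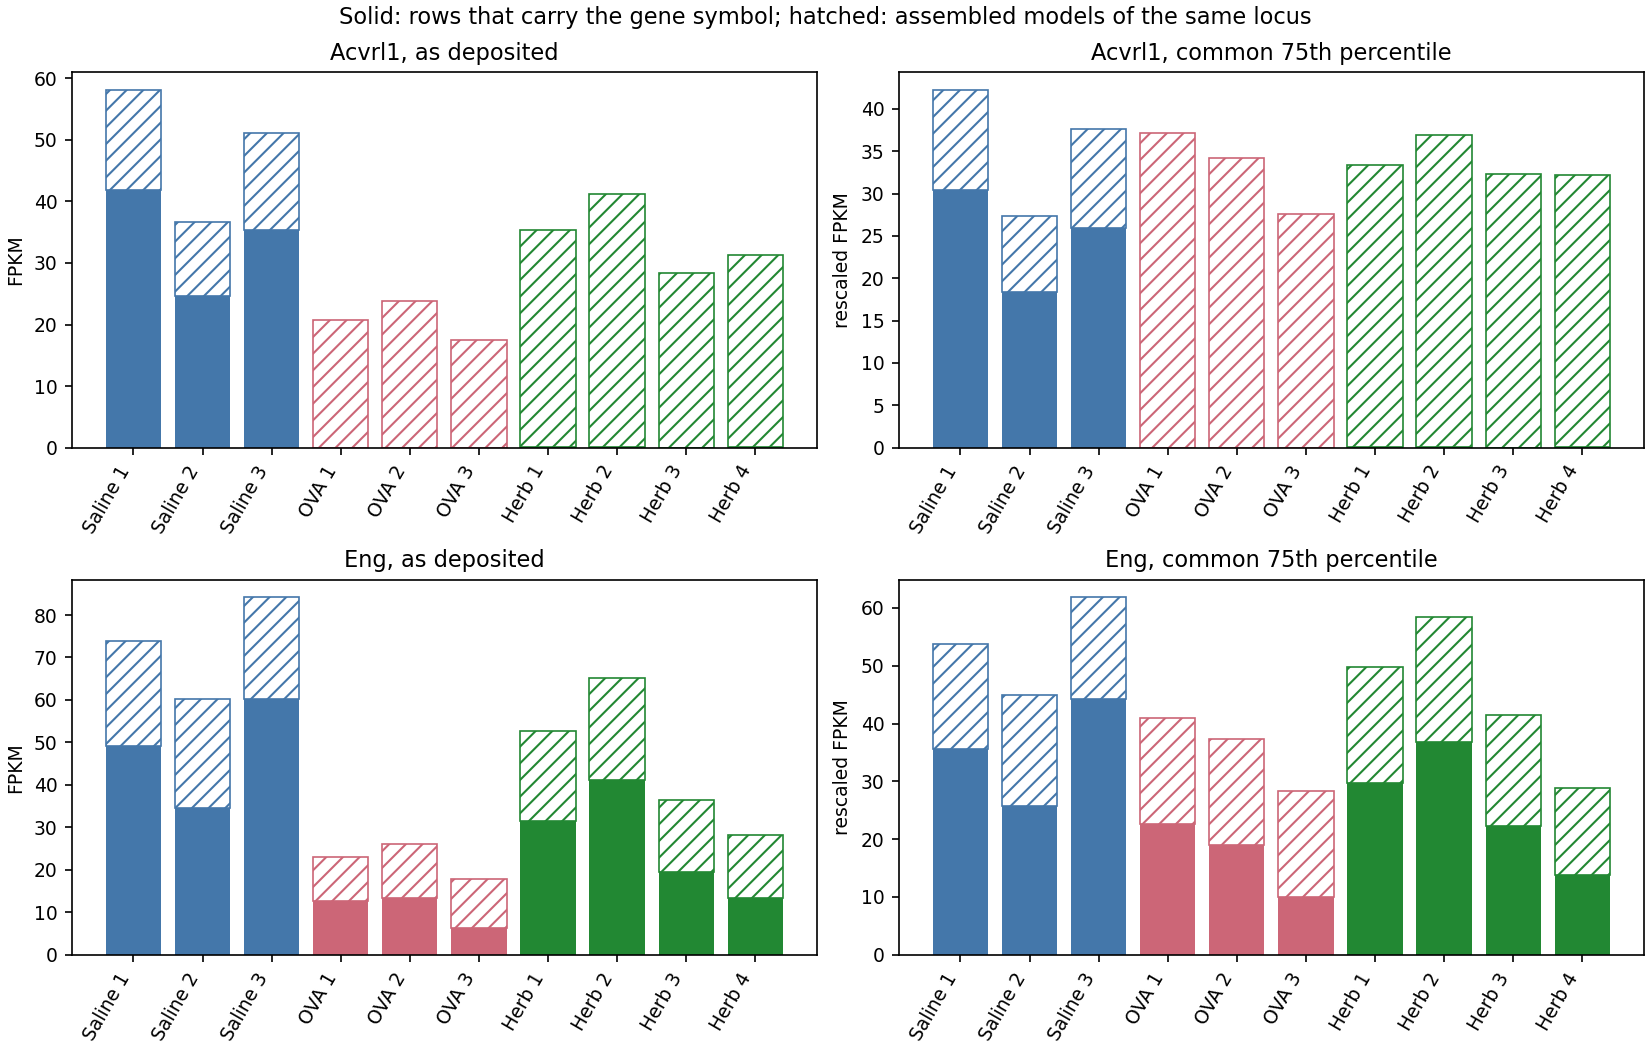
Stacked bars of FPKM in each of the 10 libraries for the Acvrl1 locus (top) and the Eng locus (bottom), as deposited (left) and rescaled to a common 75th percentile (right). Solid parts are the rows that carry the gene symbol and hatched parts the assembled models of the same locus: the solid part of Acvrl1 disappears in OVA and Herb while the rescaled locus stays between 27.3 and 42.2, and Eng keeps a solid part in every library.

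The change of rows at Acvrl1 could be read from its shares, which do not depend on the scaling of a library. Named rows held 72.1, 67.2 and 69.0% of the locus in Saline, 0 in OVA and at most 0.326% in Herb. The entry with the highest level was NM_009612 in each Saline library, with 32.6 to 43.8% of the locus. In OVA it was model 10 in replicates 1 and 2 (14.2 and 9.74 FPKM) and model 4 in replicate 3 (8.54 FPKM). In Herb it was model 3 in replicate 1 (23.3 FPKM), model 4 in replicate 2 (23.4 FPKM), model 10 in replicate 3 (13.4 FPKM) and model 2 in replicate 4 (9.68 FPKM). Model 3 was at most 2.44 FPKM in the other 9 libraries, and model 4 was listed at 0 in OVA replicates 1 and 2 and Herb replicates 1 and 4. The leading entry thus changed from mouse to mouse within a group. Model 10 was listed above 0 in all 10 libraries, between 6.12 and 14.2 FPKM as deposited.

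Named rows were lost at other symbols too, though from lower levels. Abcb1a, a drug efflux transporter, stood at 9.25, 6.68 and 9.98 FPKM in its named rows in Saline and at 0 in all 7 OVA and Herb libraries, and Acaa1b, a peroxisomal thiolase, went from 8.08, 10.4 and 7.56 FPKM to at most 0.0334 FPKM. Among the 989 symbols with placed models and at least 1 FPKM in every library, the fall of the named share from Saline to OVA was the second largest at Acvrl1 (rank 2) and at rank 208 at Eng. The median symbol of the 989 held 26.4% of its locus in named rows in Saline, 21.5% in OVA and 22.5% in Herb. Of 2031 symbols at 10 FPKM or more in all Saline libraries, only Acvrl1 was at most 0.2 FPKM in all OVA and Herb libraries. Named rows held at least 50% of the locus in every Saline library for 175 of the 989 symbols. Acvrl1 alone of these fell to at most 1% in every OVA and Herb library. As Acvrl1 was chosen for this loss, its rank and these counts are a description.

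The other 9 members, which were measured by the same fit as all genes, moved largely together after ovalbumin. As deposited, 8 of the 9 were lower in OVA vs. Saline (Bmpr2, Tgfbr3, Tgfbr1, Eng, Tgfbr2, Tgfb2, Tgfb1 and Tgfb3, in the order of the change) and Smad6 did not pass the test (limma on log2(FPKM + 1), Benjamini-Hochberg adjusted p under 0.05 over all genes). Of all genes tested, 57.9% were lower by the same rule, so that the count carries little about these members. After rescaling, 4 were lower (Bmpr2, Tgfbr3, Tgfbr2 and Tgfb2) against 17.2% of all genes, and 1 was higher (Smad6) against 24.1%. With a common sum of coding rows in place of the 75th percentile, Bmpr2 and Tgfbr3 remained lower and Smad6 higher, while Tgfbr2 (-0.36, adjusted p = 0.247) and Tgfb2 (-0.46, adjusted p = 0.09) did not pass. On that scale 987 of 11205 genes were lower and 4242 higher. The median of the 9 was -1.82 beside -0.75 for all genes as deposited, and -0.73 beside 0.08 after rescaling.

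**Figure D2:**
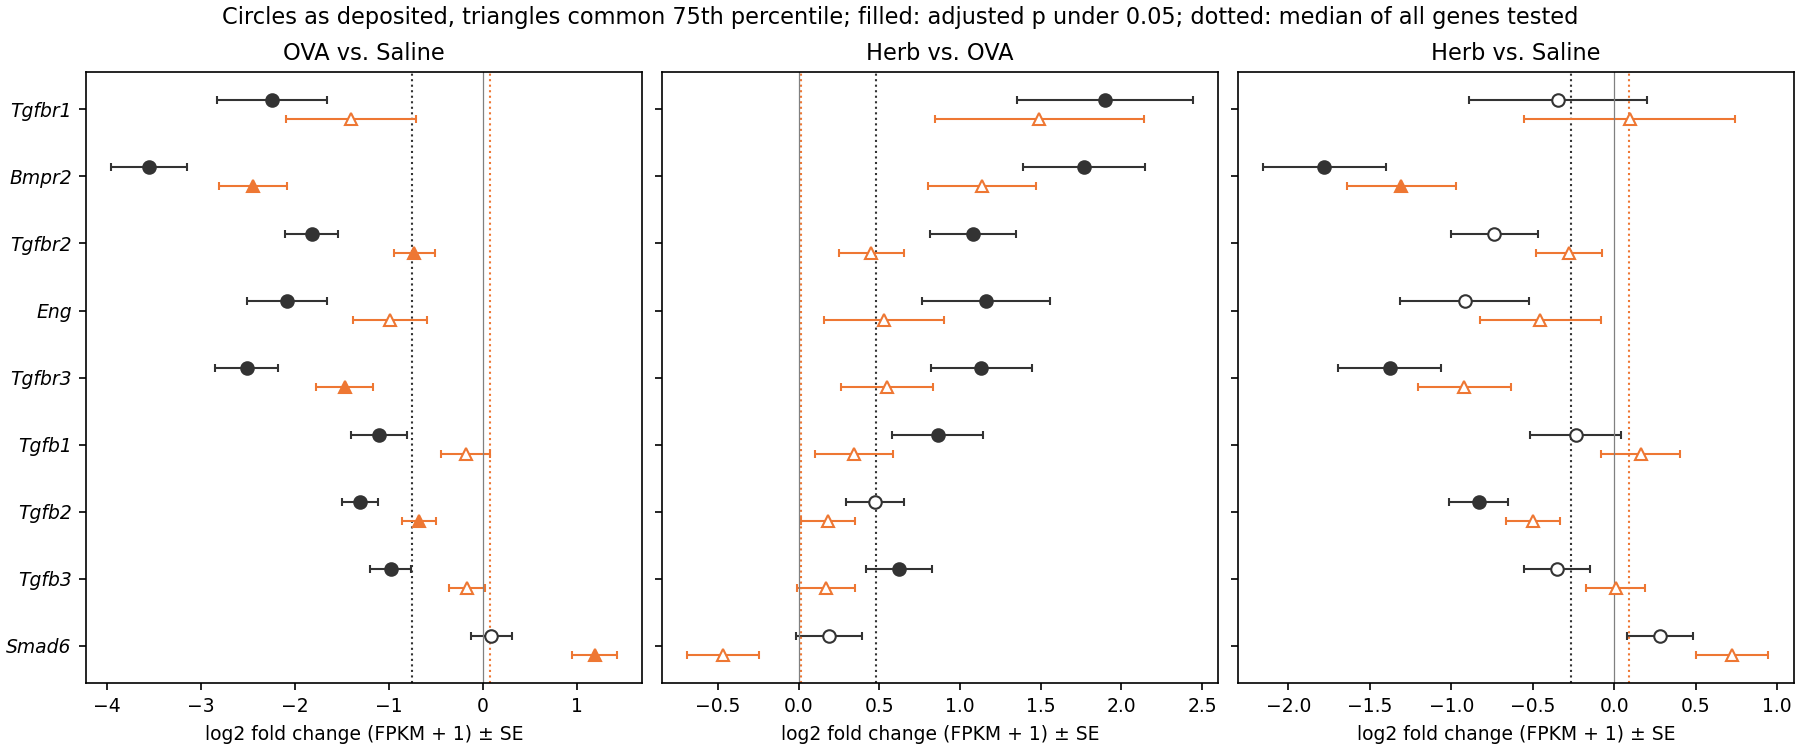
Log2 fold change of the gene sums of the 9 members other than Acvrl1, with SE, in the 3 comparisons. Circles are values as deposited and triangles values rescaled to a common 75th percentile, filled where the adjusted p is under 0.05, and dotted lines are the medians of all genes: Bmpr2 lies farthest left in OVA vs. Saline on both scales (-3.55 and -2.44), where Smad6 lies to the right of both medians.

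In Herb vs. OVA, 7 of the 9 members were higher as deposited, Tgfb2 (adjusted p = 0.0568) and Smad6 (adjusted p = 0.477) being the exceptions, where 44% of all genes were higher. After rescaling none of the 9 was called in either direction, against 0.803% of all genes, with adjusted p from 0.0879 (Bmpr2) to 0.571 (Tgfb3). In the same fit, 2 of the 9 (Bmpr2 and Tgfbr1) had an unadjusted p under 0.05, as had 3007 of the 11205 genes. The deposited count also rested on single libraries. It was 2 without Herb replicate 1, 3 without Herb replicate 2 or OVA replicate 3, and 4 without OVA replicate 1. Calls over all genes fell too, from 4982 to 3684, 3693, 4212 and 3225 without these libraries in the same order. In Herb vs. Saline, 3 of the 9 were lower as deposited (Bmpr2, Tgfbr3 and Tgfb2) against 22.7% of all genes. Without Saline replicate 2 the count was 1, and calls over all genes fell from 2921 to 897. Bmpr2 alone remained after rescaling, against 5.09%. The 3 comparisons share their libraries in pairs, so their results are not independent of each other.

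Among single rows, 15 of the 17 passed the filter of a mean of at least 1 FPKM, and 12 of these belonged to members other than Acvrl1. As deposited, 11 of the 12 rows were lower in OVA vs. Saline (41.1% of all rows), 6 were higher in Herb vs. OVA (31.7%) and 3 were lower in Herb vs. Saline (6.26%). The Herb counts rested on single libraries. In Herb vs. OVA they were 0 to 2 without OVA replicate 1, OVA replicate 3, Herb replicate 1 or Herb replicate 2. Calls over all rows fell there from 9786 to 216, 6278, 5012 and 5251, in the same order. In Herb vs. Saline the count was 0 without any 1 library other than Herb replicate 2. Calls over all rows fell there from 2443 to between 207 and 917. After rescaling, 4 rows were lower and 1 higher in OVA vs. Saline (13.4 and 11.8% of all rows), none was called in Herb vs. OVA (0.56%) and 1 was lower in Herb vs. Saline (2.61%). With 7 members represented by 1 row each, a row and its gene could differ only in Acvrl1, Eng and Tgfbr2.

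Tgfbr1, the type I receptor of the TGF-beta ligands (chr4:47353222-47414926, plus strand), had the least even OVA group. Its single row stood at 15.3, 15.2 and 13.5 FPKM in the Saline mice, at 3.77, 6.26 and 0.0464 FPKM in OVA and at 13.2, 13.0, 8.91 and 10.7 FPKM in Herb. OVA replicate 3 was nearly at 0, and no OVA mouse reached a Saline mouse, as for 63% of all genes, or a Herb mouse, as for 49.6%. The log2 fold change was -2.24 ± 0.58 (SE) in OVA vs. Saline (adjusted p = 0.00826) and 1.90 ± 0.54 in Herb vs. OVA (adjusted p = 0.0215), the latter lost without Herb replicate 1 (adjusted p = 0.0508) or Herb replicate 2 (adjusted p = 0.0512). Neither held after rescaling, at -1.40 ± 0.69 (adjusted p = 0.135) and 1.49 ± 0.65 (adjusted p = 0.181). Herb vs. Saline gave -0.35 ± 0.54 (adjusted p = 0.667), and its sign turned on rescaling (0.09).

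Bmpr2, the type II receptor for BMP ligands (chr1:59764279-59878081, plus strand), was the most abundant member in Saline and the most depressed of the 9 after ovalbumin. It stood at 129, 141 and 137 FPKM in the Saline mice, at 10.3, 19.1 and 6.05 FPKM in OVA and at 36.9, 67.4, 31.4 and 28.9 FPKM in Herb. The 3 groups did not overlap, with Herb between the others. OVA lay below Saline as for 63% of all genes, Herb above OVA as for 49.6%, and Herb below Saline as for 36.6%. The share of genes with all 3 separations was not computed. The log2 fold change in OVA vs. Saline was -3.55 ± 0.40 (adjusted p = 0.000162), at percentile 0.5 of all genes, and -2.44 ± 0.36 (adjusted p = 0.00159) after rescaling. It was 1.77 ± 0.38 in Herb vs. OVA (adjusted p = 0.00836), which did not pass after rescaling (1.135 ± 0.34, adjusted p = 0.0879). In Herb vs. Saline it was lower as deposited and after rescaling, by -1.78 ± 0.38 (adjusted p = 0.0135) and -1.31 ± 0.34 (adjusted p = 0.0345), but not without Saline replicate 2 (-1.75, adjusted p = 0.0527), with a common sum of coding rows (-1.11, adjusted p = 0.0536) or with quantile normalization (-0.90, adjusted p = 0.14).

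Tgfbr2, the type II receptor that binds the TGF-beta ligands (chr9:116087695-116175363, minus strand), has 2 rows whose coding sequences differ by 1 exon of 75 bases at chr9:116158271-116158345. NM_009371 carries the exon and encodes 592 residues, and NM_029575 skips it and encodes 567. The 2 transcripts, of 8092 and 3476 bases, also differ in length outside the coding sequence. The part of the exon in the split of their levels was not tested. The exon is shown in capitals between the coding bases that flank it, and the junction of the shorter form below it. Both are from GENCODE vM21 transcripts on GRCm38 and are what tells the coding sequences apart.
NM_009371: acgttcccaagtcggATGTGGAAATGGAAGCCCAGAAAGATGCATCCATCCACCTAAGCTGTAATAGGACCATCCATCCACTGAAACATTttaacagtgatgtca
NM_029575: acgttcccaagtcggttaacagtgatgtca

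The form with the exon was the lower of the pair in 9 of the 10 libraries. NM_009371 stood at 10.9, 11.9 and 14.0 FPKM in the Saline mice, at 0.192, 0.101 and 0.825 FPKM in OVA and at 0.443, 6.06, 7.66 and 4.90 FPKM in Herb. NM_029575 stood at 30.2, 20.6 and 24.8 FPKM in the Saline mice, at 8.51, 13.9 and 6.92 FPKM in OVA and at 25.8, 22.3, 6.41 and 17.2 FPKM in Herb. Both rows were thus lower in every OVA mouse than in every Saline mouse, NM_009371 to under 1 FPKM. Of all gene sums 63% were separated in this way, and the share of all rows was not computed. Herb replicate 1 held almost none of NM_009371 and Herb replicate 3 more of it than of NM_029575.

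NM_029575 held 73.6, 63.4 and 64.0% of the Tgfbr2 sum in Saline, 97.8, 99.3 and 89.3% in OVA and 98.3, 78.7, 45.6 and 77.8% in Herb. OVA and Saline did not overlap, and the difference of 28.5 percentage points had an exact permutation p = 0.1, two-sided, which is the smallest that 3 against 3 libraries allow (0.514 adjusted over 6 tests). Herb overlapped both other groups (exact permutation p = 0.171 against OVA and 0.571 against Saline). At the level of rows, NM_009371 was lower in OVA vs. Saline by -3.30 ± 0.58 (adjusted p = 0.00205) and -2.83 after rescaling (adjusted p = 0.0109), whereas NM_029575 at -1.32 ± 0.46 (adjusted p = 0.0416) did not pass after rescaling (-0.45, adjusted p = 0.443). The gene sum was lower by -1.82 ± 0.29 (adjusted p = 0.000557) as deposited and -0.73 ± 0.22 (adjusted p = 0.0258) after rescaling, but did not pass with a common sum of coding rows (adjusted p = 0.247) or quantile normalization (adjusted p = 0.418). It was higher in Herb vs. OVA as deposited (1.08 ± 0.27, adjusted p = 0.0126) and not after rescaling (0.45 ± 0.20, adjusted p = 0.193).

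**Figure D3:**
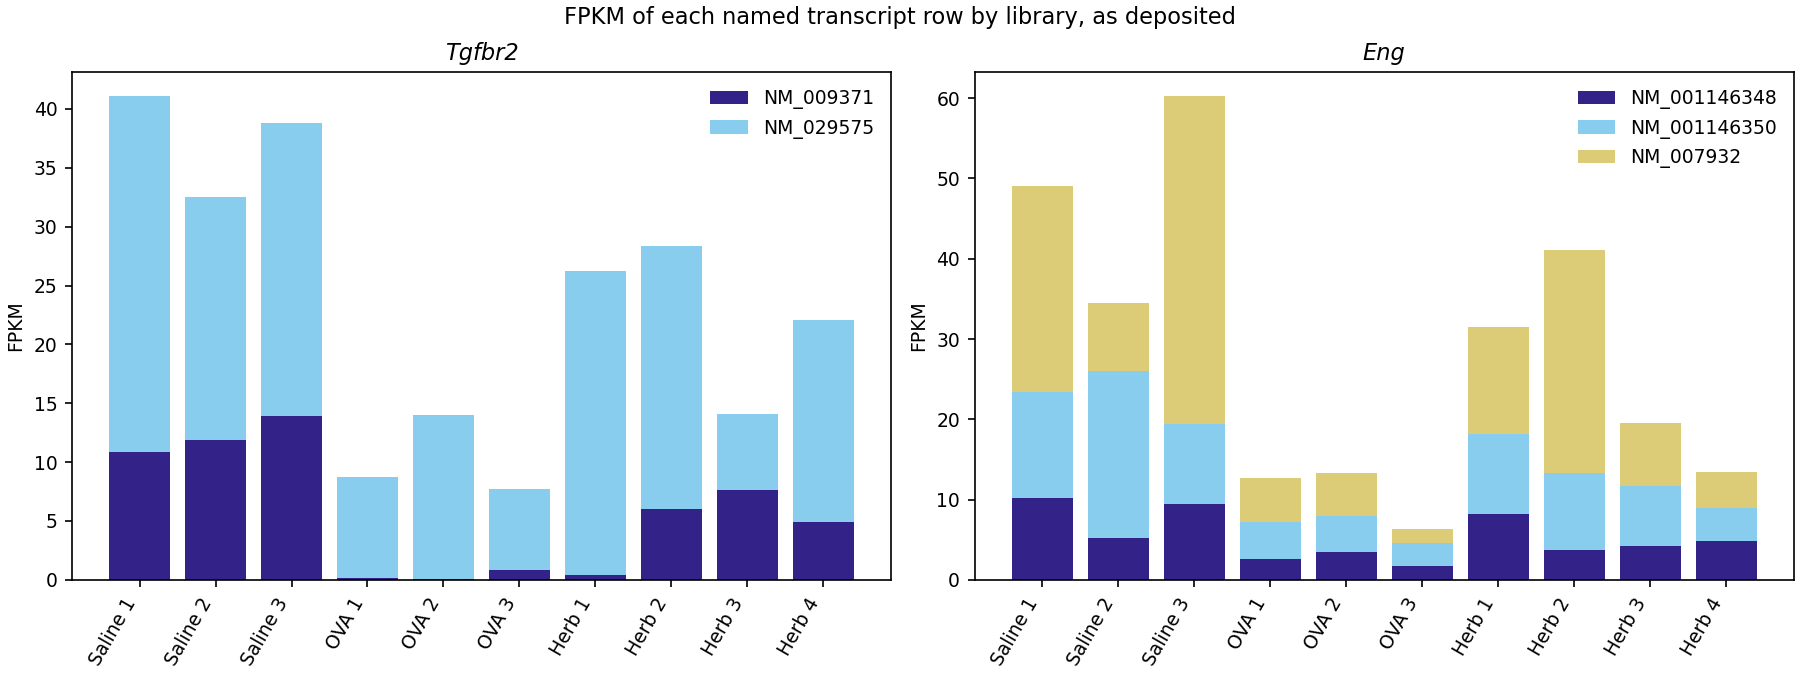
Stacked bars of the FPKM of each named row of Tgfbr2 (left) and Eng (right) in the 10 libraries, as deposited. The NM_009371 part of Tgfbr2 is under 1 FPKM in the 3 OVA libraries and in Herb replicate 1, and the 3 Eng rows are present in every library in changing proportions.

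Eng encodes endoglin, the co-receptor of Acvrl1 on endothelial cells (chr2:32646595-32682669, plus strand). The coding sequences of its 3 rows differ at 2 sites. NM_001146350 reads on past the end of the last shared exon into bases that the other rows splice out (chr2:32681298-32681386), which ends the protein early at 641 residues against 653 for NM_007932 and gives it a different, shorter cytoplasmic tail. The bases read on to and including the stop codon are in capitals, above the junction of NM_007932.
NM_001146350: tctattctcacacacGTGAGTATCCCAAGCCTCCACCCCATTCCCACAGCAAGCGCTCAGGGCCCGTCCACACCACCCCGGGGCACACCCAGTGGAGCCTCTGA
NM_007932: tctattctcacacacgtggccccagcaagc

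In its coding sequence NM_001146348 differs from NM_007932 only by lacking the first 3 bases of exon 2 (chr2:32657516-32657518), shown in capitals in NM_007932, and encodes 652 residues. The 2 rows also start at different positions in exon 1, and as few reads can tell them apart, the split of their levels is uncertain.
NM_007932: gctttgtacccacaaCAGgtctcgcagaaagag
NM_001146348: gctttgtacccacaagtctcgcagaaagag

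No row of Eng was lost. NM_007932 stood at 25.6, 8.51 and 40.8 FPKM in the Saline mice, at 5.49, 5.40 and 1.78 FPKM in OVA and at 13.4, 27.7, 7.85 and 4.57 FPKM in Herb. NM_001146350 stood at 13.2, 20.8 and 9.98 FPKM, at 4.60, 4.48 and 2.81 FPKM, and at 9.93, 9.67, 7.58 and 4.02 FPKM in the same order of groups. NM_001146348 stood at 10.3, 5.21 and 9.43 FPKM, at 2.61, 3.41 and 1.75 FPKM, and at 8.23, 3.66, 4.15 and 4.90 FPKM. Each row was lower in every OVA mouse than in every Saline mouse, as were 63% of all gene sums. All 3 rows, like 41.1% of all rows, were lower in OVA vs. Saline as deposited (-2.17 ± 0.69, -1.62 ± 0.35 and -1.35 ± 0.32, adjusted p = 0.0298, 0.00539 and 0.00802). None of the 3 passed after rescaling, with adjusted p from 0.112 to 0.182. The share of NM_007932 in the sum was 48.2 ± 21.8% in Saline, 37.3 ± 8.10% in OVA and 46.0 ± 14.8% in Herb, and no pair of groups differed beyond this spread (exact permutation p from 0.5 to 0.8, two-sided).

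The Eng sum stood at 49.1, 34.5 and 60.2 FPKM in the Saline mice, at 12.7, 13.3 and 6.34 FPKM in OVA and at 31.6, 41.1, 19.6 and 13.5 FPKM in Herb. Herb overlapped Saline, and its lowest mouse lay just above the highest OVA mouse. It was lower in OVA vs. Saline (-2.08 ± 0.42, adjusted p = 0.0023), which did not hold after rescaling (-0.98 ± 0.40, adjusted p = 0.0752). It was higher in Herb vs. OVA as deposited (1.16 ± 0.40, adjusted p = 0.04), not after rescaling (0.53 ± 0.37, adjusted p = 0.387), and not without OVA replicate 1, OVA replicate 3, Herb replicate 1 or Herb replicate 2 (adjusted p = 0.0664, 0.133, 0.0926 and 0.0908).

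The Eng locus, unlike that of Acvrl1, kept its named rows. With 4 assembled models placed there it summed to 73.8, 60.3 and 84.2 FPKM in Saline, 22.9, 26.1 and 17.9 FPKM in OVA and 52.8, 65.1, 36.4 and 28.1 FPKM in Herb. Named rows held 57.3 to 71.6% of it in Saline, 35.4 to 55.3% in OVA and 48.0 to 63.1% in Herb. With the models the change in OVA vs. Saline was -1.66 (adjusted p = 0.00109) as deposited and -0.58 (adjusted p = 0.0947) after rescaling, smaller than that of the named rows on both scales.

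Tgfbr3, or betaglycan, the co-receptor that presents ligand to Tgfbr2 (chr5:107106567-107289629, minus strand), was lower after ovalbumin on both scales. It stood at 29.4, 35.8 and 33.0 FPKM in the Saline mice, at 5.59, 6.90 and 2.94 FPKM in OVA and at 15.8, 17.7, 8.69 and 8.19 FPKM in Herb. The groups did not overlap as deposited, as for 63% of all genes in OVA below Saline, 49.6% in Herb above OVA and 36.6% in Herb below Saline, but after rescaling OVA (4.70 to 10.2) overlapped Herb (8.46 to 15.9). The change in OVA vs. Saline was -2.51 ± 0.34 (adjusted p = 0.000266) and -1.47 ± 0.31 (adjusted p = 0.00576) after rescaling. In Herb vs. OVA it was 1.13 ± 0.32 (adjusted p = 0.0192) and 0.55 ± 0.29 (adjusted p = 0.254), and the first was lost without OVA replicate 3 (adjusted p = 0.0625) or Herb replicate 1 (adjusted p = 0.0503). In Herb vs. Saline it was -1.38 ± 0.32 (adjusted p = 0.017) and -0.92 ± 0.29 (adjusted p = 0.059), the first being lost without Saline replicate 2 (adjusted p = 0.0641) or Saline replicate 3 (adjusted p = 0.0527).

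The 3 TGF-beta ligands were low throughout. Tgfb1 (chr7:25687002-25705077, plus strand) stood at 9.36, 4.63 and 6.88 FPKM in the Saline mice, at 1.78, 3.87 and 2.46 FPKM in OVA and at 7.16, 5.51, 3.60 and 6.50 FPKM in Herb. Tgfb2 (chr1:186622787-186709697, minus strand) stood at 3.44, 2.82 and 2.74 FPKM, at 0.575, 0.946 and 0.364 FPKM, and at 1.19, 1.90, 0.916 and 1.06 FPKM in the same groups. Tgfb3 (chr12:86056743-86079041, minus strand) stood at 4.63, 3.67 and 3.66 FPKM, at 1.65, 1.95 and 1.05 FPKM, and at 3.78, 3.70, 1.91 and 2.497 FPKM. For each ligand every OVA mouse was below every Saline mouse as deposited, as for 63% of all genes, and after rescaling OVA and Saline overlapped for Tgfb1 and Tgfb3.

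Of the ligands, Tgfb2 alone was lower in OVA vs. Saline both as deposited and after rescaling (-1.31 ± 0.19, adjusted p = 0.000401, and -0.68 ± 0.18, adjusted p = 0.0156, after rescaling), though not with a common sum of coding rows (adjusted p = 0.09). Tgfb1 at -1.098 ± 0.30 (adjusted p = 0.0104) and Tgfb3 at -0.98 ± 0.22 (adjusted p = 0.00372) came to -0.18 ± 0.26 and -0.16 ± 0.19 after rescaling (adjusted p = 0.605 and 0.525), and turned to 0.13 and 0.12 when the libraries were set to a common sum of coding rows. Whether Tgfb2 changed more than the other ligands was not tested. In Herb vs. OVA, Tgfb1 (0.86 ± 0.28, adjusted p = 0.0336) and Tgfb3 (0.62 ± 0.20, adjusted p = 0.0342) were higher as deposited only. These calls were lost without OVA replicate 1 (adjusted p = 0.124 and 0.0724), OVA replicate 3 (0.0805 and 0.113), Herb replicate 1 (0.0811 and 0.0832) or Herb replicate 2 (0.0664 and 0.0833), and that of Tgfb1 also without Herb replicate 4 (adjusted p = 0.0707). Tgfb2 was lower in Herb vs. Saline as deposited (-0.83 ± 0.18, adjusted p = 0.0142), not after rescaling (-0.50 ± 0.17, adjusted p = 0.0736), and not without Saline replicate 1 (adjusted p = 0.05003).

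Smad6, the inhibitory Smad (chr9:63953076-64022085, minus strand), differed from the other members in that its deposited level hardly moved. It stood at 18.0, 16.1 and 13.4 FPKM in the Saline mice, at 20.6, 18.1 and 12.8 FPKM in OVA and at 20.1, 21.7, 21.6 and 14.7 FPKM in Herb, with all groups overlapping. The log2 fold change was 0.09 ± 0.22 in OVA vs. Saline (adjusted p = 0.727), 0.19 ± 0.20 in Herb vs. OVA (adjusted p = 0.477) and 0.28 ± 0.20 in Herb vs. Saline (adjusted p = 0.33). Since most genes were lower in OVA, Smad6 stood at percentile 87.2 of all genes in the first comparison. After rescaling it was at 13.0, 11.7 and 9.68 in Saline and at 37.5, 26.4 and 20.4 in OVA, without overlap (31.2% of all genes were higher in this way), and was higher in OVA vs. Saline by 1.19 ± 0.24 (adjusted p = 0.0048). Rescaling turned its sign in Herb vs. OVA (-0.47 ± 0.22, adjusted p = 0.216). Whether Smad6 RNA rose or stayed level therefore depended on the scale chosen.

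**Figure D4:**
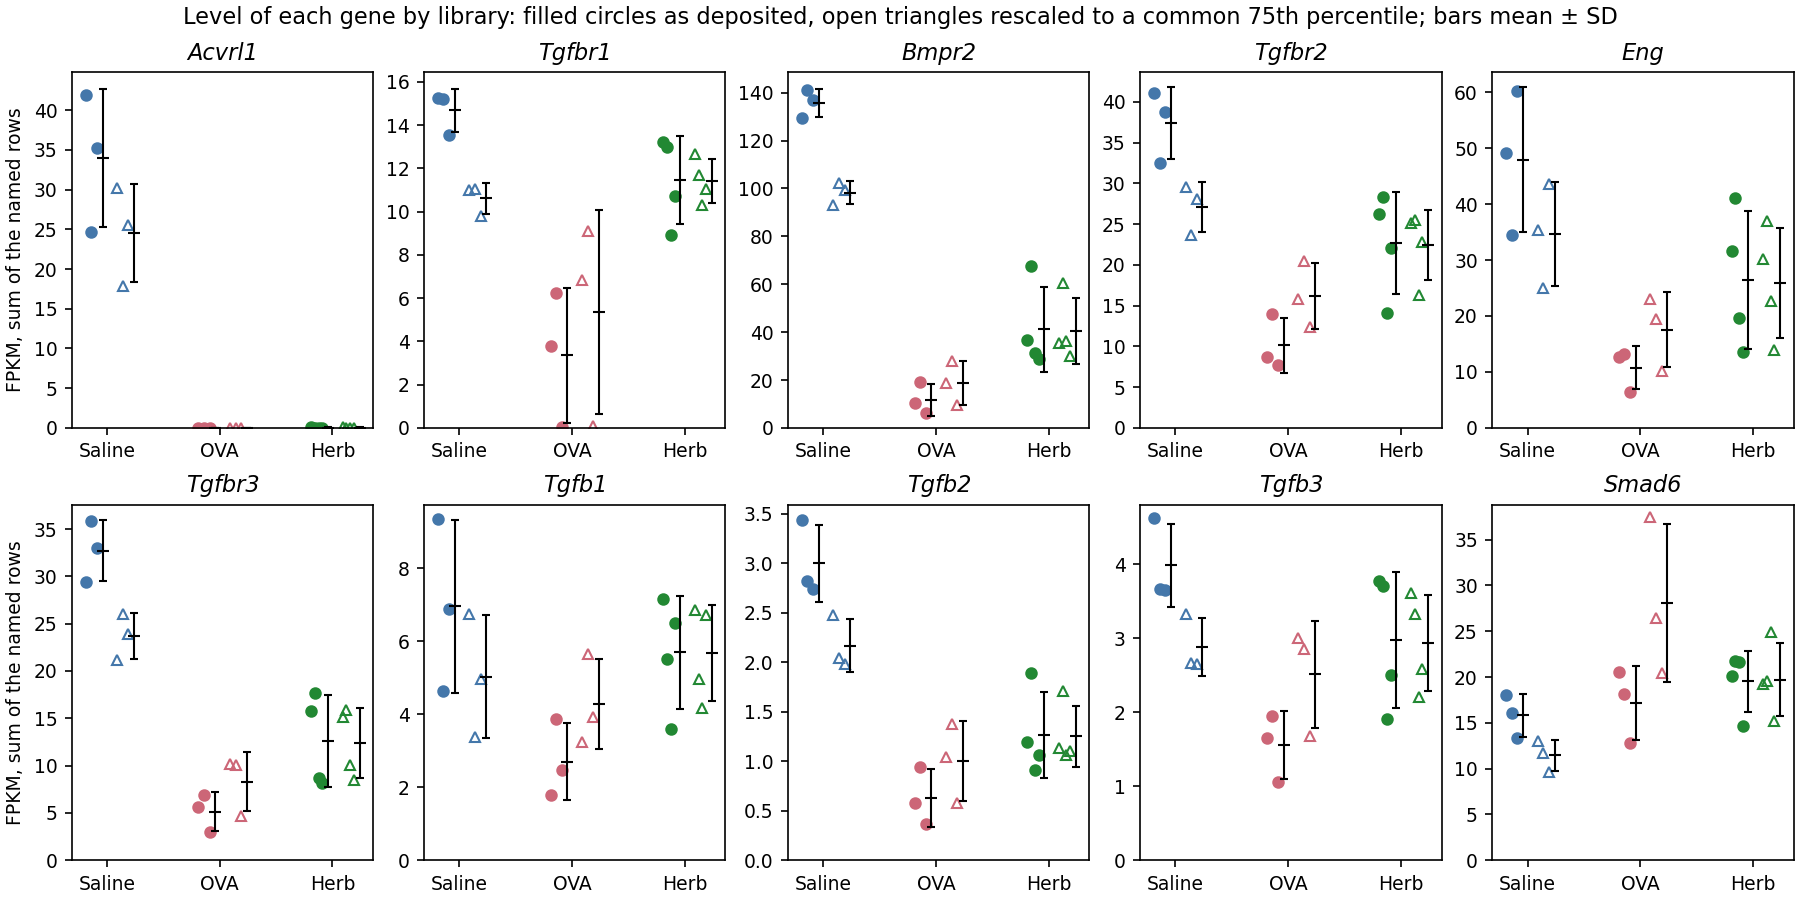
FPKM summed over the named rows of each of the 10 genes, by library, with filled circles as deposited, open triangles rescaled to a common 75th percentile, and bars of mean ± SD (n = 3, 3 and 4). Acvrl1 lies at or near 0 in OVA and Herb, Bmpr2 falls from 129 to 141 FPKM in Saline to 6.05 to 19.1 FPKM in OVA, and the rescaled Smad6 points of OVA lie above those of Saline.

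As FPKM is per length, the levels of the named rows could be ordered between genes. The mean in Saline ran from Bmpr2 (136 ± 5.89 FPKM) through Eng (47.9 ± 12.9), Tgfbr2 (37.5 ± 4.43), Acvrl1 (33.9 ± 8.70), Tgfbr3 (32.7 ± 3.23), Smad6 (15.8 ± 2.33), Tgfbr1 (14.7 ± 0.986), Tgfb1 (6.96 ± 2.36) and Tgfb3 (3.99 ± 0.557) to Tgfb2 (2.999 ± 0.384). Eng, Tgfbr2, Acvrl1 and Tgfbr3 overlapped in their spread, as did Smad6 and Tgfbr1. In OVA the order was led by Smad6 (17.2 ± 4.001 FPKM), followed by Bmpr2 (11.8 ± 6.66), Eng (10.8 ± 3.85) and Tgfbr2 (10.2 ± 3.39), which overlapped. In Herb, Bmpr2 (41.2 ± 17.8 FPKM) led again, ahead of Eng (26.4 ± 12.3), Tgfbr2 (22.7 ± 6.32) and Smad6 (19.5 ± 3.30), within overlapping spreads.

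The other genes of the pathway are given by list, and their counts are to be read against the 57.9% of all genes that were lower in OVA vs. Saline as deposited. In OVA vs. Saline as deposited, 4 of 6 tested ligands of the family were lower and 1 higher. They included Bmp4 (-2.67, adjusted p = 0.0228) and Bmp6 (-2.03, adjusted p = 0.00115), and the higher one was Inhba, a subunit of activin A (1.13, adjusted p = 0.0326). Gdf2 and Bmp10, which encode the high-affinity ligands of Acvrl1 made mainly outside the lung, were at 0 to 0.0667 FPKM and at 0 in all libraries. Of 7 other receptors tested 6 were lower, led by the type I receptor Bmpr1a (-2.01, adjusted p = 0.00486) and the type II receptor Acvr2a (-1.82, adjusted p = 0.000183). Of 7 Smads 6 were lower, led by the common mediator Smad4 (-1.49, adjusted p = 0.000722) and Smad9 (-1.18, adjusted p = 0.000844). The medians of these lists were -1.78, -0.98 and -0.88, beside -0.75 for all genes.

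After rescaling these lists lost most of their calls in OVA vs. Saline. Of all genes, 17.2% were lower and 24.1% higher on that scale. The 6 ligands had 3 lower and 1 higher. The 7 receptors and the 7 Smads each had 1 lower and 1 higher. Bmp6 (-1.097, adjusted p = 0.0434), Acvr2a (-0.83, adjusted p = 0.00823), Smad9 (-0.63, adjusted p = 0.0279) and Inhba (1.61, adjusted p = 0.0196) kept theirs, and Bmp4, Bmpr1a and Smad4 did not.

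Of 11 genes for the storage and activation of latent TGF-beta, 6 were lower and none higher as deposited, a share near that of all genes. Both subunits of the integrin that releases active TGF-beta on epithelium, Itgav (-3.05, adjusted p = 0.000136) and Itgb6 (-2.81, adjusted p = 0.000393), led the list and were lower after rescaling too (-2.31 and -2.26). Of 11 inhibitors 7 were lower, led by the proteoglycan Dcn (-3.53, adjusted p = 0.000851) and the ubiquitin ligase Smurf2 (-2.11, adjusted p = 0.000151). Of 14 target genes 10 were lower, led by Tmem100, an endothelial target of Acvrl1 signalling (-4.21, adjusted p = 0.000163), and Ctgf, a matrix protein (-3.51, adjusted p = 0.000399). Dcn, Smurf2, Tmem100 and Ctgf remained lower after rescaling (-2.67, -1.17, -3.31 and -2.46). There the 3 lists had 3 of 11, 4 of 11 and 5 of 14 genes lower and 1, 1 and 2 higher. Of all genes, 17.2% were lower and 24.1% higher by that rule. The medians of the 3 lists were -1.28, -1.49 and -1.46 as deposited.

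In Herb vs. OVA as deposited, where 44% of all genes were higher and 50 of 11205 lower, no gene of these 6 lists was lower, and 3 of 6 ligands, 5 of 7 receptors, 4 of 7 Smads, 5 of 11 storage genes, 5 of 11 inhibitors and 9 of 14 targets were higher. The ligands, storage genes and inhibitors were thus near the share of all genes. They included Bmp6 (1.29, adjusted p = 0.0162), Bmpr1a (1.48, adjusted p = 0.0246), Acvr2a (1.099, adjusted p = 0.00716) and Tmem100 (2.26, adjusted p = 0.00742). After rescaling Itgav (1.76, adjusted p = 0.00888) among the storage genes and Col1a2, a collagen chain (4.95, adjusted p = 0.0251), among the targets remained. In Herb vs. Saline as deposited, 22.7% of all genes were lower and 372 of 11205 higher. Lower were 2 of 6 ligands, 1 of 7 receptors and 4 of 7 Smads. So were 4 of 11 storage genes, 6 of 11 inhibitors and 6 of 14 targets. Higher were 1 storage gene and 1 inhibitor. Dcn (-2.45, adjusted p = 0.017), Tmem100 (-1.96, adjusted p = 0.0172) and Ltbp2 (-2.52, adjusted p = 0.00968) were lower, also after rescaling. Ltbp2 belongs by name to the latent TGF-beta binding proteins and was counted in both the storage and the target list. Ltbp4 of the same family was higher (2.61, adjusted p = 0.0213, and 2.84 after rescaling).

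Markers of cell types differed in how far they moved beside the members. Their counts after rescaling stand beside 17.2% of all genes lower and 24.1% higher in OVA vs. Saline. The 15 endothelial markers summed to 483 to 631 FPKM in Saline, 140 to 215 FPKM in OVA and 257 to 473 FPKM in Herb, none being at 0 in every library. Of 14 tested, 9 were lower in OVA vs. Saline as deposited, near the 57.9% of all genes, and 5 after rescaling. Cdh5 (-3.25, and -2.14 after rescaling) and Erg (-2.81, and -1.96 without passing) were the lowest as deposited. Esam was the highest (1.84, and 2.29 after rescaling) and passed on neither scale. Fibroblast and smooth muscle markers summed to 129 to 188 FPKM in Saline, 80.0 to 116 FPKM in OVA and 124 to 201 FPKM in Herb, with 3 of 8 lower as deposited, a median of -0.43 beside -0.75 for all genes, and 1 lower and 4 higher after rescaling. Alveolar epithelial markers summed to 3690 to 4829 FPKM, 502 to 922 FPKM and 1184 to 2208 FPKM, with 8 of 9 lower as deposited and 5 after rescaling. Leukocyte markers summed to 61.8 to 454 FPKM, 10.2 to 15.2 FPKM and 22.2 to 117 FPKM, so that the Saline libraries alone spread widely. Of the 14 markers 8 were tested, with 6 lower as deposited and 1 after rescaling, and none higher. S100a9 (-4.93 ± 2.26) and Itgam (-0.04 ± 0.30) did not pass as deposited. These sums are RNA levels and not cell counts. The study counted more eosinophils, neutrophils and macrophages in the lavage fluid of OVA mice than of Saline mice. The part of the cell make-up in the results on the members was not tested.

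The 3 symbols whose log2 levels ran most like those of the named Acvrl1 rows over the 10 libraries were Abcb1a (Pearson r = 0.999), Acaa1b (r = 0.991) and Map6 (r = 0.977), among 11204 symbols. Eng ran at r = 0.707 with Acvrl1, at rank 3484. Most like Eng were Mfap2 (r = 0.992), Tusc5 (r = 0.990) and Ppp1r13b (r = 0.990), and among the members Tgfbr3 (r = 0.951) and Bmpr2 (r = 0.936). The libraries share the shift in make-up between the groups, so these values describe the table and no more.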

How the data were processed

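The authors trimmed paired-end reads of whole lung with Cutadapt, aligned them to mm10 with HISAT2, assembled transcripts with StringTie (1.3.3b, per the labels) and deposited 1 table of FPKM with 66548 rows, 31605 of them assembled models without a symbol. The labels and the study's methods name different library kits, so it is unsure whether strand was kept, and reads of an antisense gene inside Acvrl1 may be in its models. No counts were used. The lowest FPKM values rose in steps that match 14900000 to 29200000 mapped fragments per library or double that number, with 37.2 to 43.2% of values within 0.1 of a whole step (20% if evenly spread), so depth is approximate. Genes were sums of the rows of a symbol. A model was placed in a gene when the numbers missing from its locus equalled the named rows of 1 symbol within it, which held for 1103 of 1362 loci (81.0%). FPKM sums over models of unknown length are approximate levels.

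Groups came from the sample titles. Groups were compared by limma 3.58.1 (R 4.3.3) on log2(FPKM + 1), which understates changes of low genes, with a trend, all 10 libraries in 1 fit, a mean of at least 1 FPKM, and Benjamini-Hochberg adjustment over 11205 genes or 30194 rows. Shares were tested with exact permutation tests (SciPy 1.17.1). The script was tested on simulated data with 100 genes changed at each of 2 sizes among 11205. It recovered 47% of log2 changes of 1 and 79% of changes of 2, with 4.55% of calls false. A change that did not pass is therefore not shown to be absent. P-values measure the spread between these libraries. The members and lists were chosen with earlier results of these data known. Named are all members and their rows, from each list up to 2 genes with the largest called change in each direction per comparison, of which some are given, and the 3 symbols most like Acvrl1 and Eng. Alternatives were other scalings, pseudocounts of 0.1 and 0.5, no filter, a replicate block, 2 groups only, leaving out each library, and, chosen after seeing the data, the block with rescaling and sums with placed models.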

Additional observations from a re-analysis of the deposited data

How the results depend on the processing

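The 8 calls in OVA vs. Saline as deposited were made without any 1 library (8 in each case, beside 6143 to 6538 of all 11205 genes). The number of member genes called depended on how the libraries were scaled. With a common 75th percentile, a common sum of coding rows and quantile normalization it was 5, 3 and 4 in OVA vs. Saline, 0, 0 and 0 in Herb vs. OVA, and 1, 1 and 1 in Herb vs. Saline. Over all 11205 genes the calls were 4618, 5229 and 4004, then 90, 593 and 157, then 1758, 2406 and 841. In Herb vs. Saline the coding sum called Smad6 as higher, as 2087 of all genes, and quantile normalization Tgfb2 as lower, as 382. For rows the same scalings gave 5, 4 and 5, then 0, 0 and 0, then 1, 1 and 1. Over all 30194 rows they gave 7610, 9906 and 6795, then 169, 257 and 162, then 1666, 4703 and 1011. Without the filter Herb vs. OVA had 4 genes (4441 of all 20819) and 2 rows (7619 of all 57556), and Herb vs. Saline 1 row (1900 of all). A pseudocount of 0.1 left 1 row in Herb vs. Saline (1312 of all 30194). A fit of 2 groups alone left 1 row in Herb vs. OVA (6795 of all 30194). Leaving out 1 library at a time gave 2 to 8 genes in Herb vs. OVA, 1 to 3 genes in Herb vs. Saline, and 8 to 11, 0 to 6 and 0 to 3 rows in the 3 comparisons. Over all genes the same fits called 3225 to 5069 and 897 to 3156, and over all rows 10675 to 12827, 216 to 9300 and 207 to 3014. The cause of these changes was not tested.

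The replicate numbers did not pair the libraries, since the deviations of the 9 same-numbered pairs correlated at -0.0087 to 0.0953. With a replicate block the gene counts were 8, 6 and 3 and the row counts 10, 5 and 0. Calls over all genes were 6603, 4040 and 1342, and over all rows 11962, 5794 and 235. With the block and the common 75th percentile the gene counts were 5, 0 and 0 and the row counts 5, 0 and 0. Calls over all genes were then 4312, 5 and 592, and over all rows 6202, 32 and 53.

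Signs turned for these changes. In Herb vs. OVA Smad6 was at -0.47, -0.65 and -0.72 under the 3 scalings, -0.36 with block and rescaling, and -0.00076 (without OVA replicate 3) to 0.32 leaving out 1 library. In OVA vs. Saline it was at -0.01 without Saline replicate 3 and -0.044 without OVA replicate 1. In Herb vs. Saline, under the 3 scalings and then the block with rescaling, Tgfb1 was at 0.16, 0.33, 0.10 and 0.086 and Tgfbr1 at 0.095, 0.28, 0.17 and 0.11. Tgfb3 was at 0.0086, 0.16 and 0.049 (75th percentile, coding sum, block) and Tgfbr2 at 0.047 (quantile). With the coding sum Tgfb1 and Tgfb3 were at 0.13 and 0.12 in OVA vs. Saline, where both passed as deposited. Leaving out 1 library, the share of NM_007932 in Eng differed by -22.7 to -1.15, 1.51 to 12.7 and -14.0 to 7.54 percentage points in the 3 comparisons, and that of NM_029575 in Tgfbr2 by 26.6 to 31.8, -28.1 to -10.6 and 0.352 to 17.9. FPKM without counts limits what can be said of rows near 0.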
